A study of Homo sapiens with 8 samples.

Results

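Predicted miRNAs with counts in the negative control libraries and none in the circSOD2-sh libraries were examined in 786-O cells, a human clear cell renal cell carcinoma (ccRCC) line that lacks functional VHL. The rows of the count table that carry a number given by the authors in place of a miRNA name were selected by their counts: at least 10 in each of the 4 negative control (NC) libraries and 0 in each of the 4 circSOD2-sh libraries. The rule found 54 of the 1630 predicted rows, and 1.74% of all 3112 rows of the table, the other 1482 being known miRNAs. Counted once where rows held the same 8 counts, these were 45 distinct rows. The groups differ by definition in these rows, so their difference between the groups is a description and is not tested. Each row is named here by its number, as "predicted miRNA 785", with a letter where several rows shared a number.

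All samples were 786-O cells given a plasmid with Lipofectamine 3000 and taken for RNA after 48 hours. NC cells received a control plasmid, and circSOD2-sh cells received a short hairpin RNA (shRNA) plasmid against circSOD2, a circular RNA of the SOD2 gene. The methods of the study also describe lentiviral shRNA with puromycin selection for stable lines, and the labels do not tie that step to these libraries. Each group came from 1 cell line, and the labels do not say whether the 4 samples of a group were separate cultures, so any p-value measures only the spread between these samples. A circular RNA is not among the rows of a miRNA table, so the knockdown itself could not be read from these counts.

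A miRNA is cut from a hairpin in a longer transcript, first in the nucleus by Drosha and then in the cytoplasm by Dicer, and a strand of the resulting duplex is loaded into an Argonaute protein, where its seed pairs with target messages. A predicted miRNA is a stack of short reads that maps to a genomic place that could fold into such a hairpin, with no entry in the reference list of miRNAs. Fragments of other short RNAs can also form such stacks, and a short read that maps to several places can be counted at each. The shRNA of a plasmid passes through the same Dicer step.

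The study lists these inserts for its control shRNA and for circSOD2, and they are shown because the groups were given different plasmids. The sources used here do not say that the control plasmid of these libraries carried sh-NC. The capitals mark the 16 bases that both circSOD2 inserts share.
circSOD2-sh1: atcgtTATGCTGAGAGATGTT
circSOD2-sh2: TATGCTGAGAGATGTTaca
sh-NC: gcgacgatctgcctaagat
The labels do not say which of the circSOD2 inserts was in the sequenced cells. The count table gives numbers and no sequences for predicted miRNAs, and 0 of the 54 rows could be matched by name to a RefSeq miRNA, so their sequences and positions are not given here and were not compared with the inserts.

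The NC libraries held 6386872 to 9245044 counts and the circSOD2-sh libraries 3743860 to 4208276. Counts of known miRNAs were 2344870 to 3573638 in NC and 3604691 to 4059249 in circSOD2-sh, so the larger NC totals lay in predicted rows, which made up 58.1% to 63.8% of NC counts and 3.54% to 4.93% of circSOD2-sh counts. The miRNAs listed for the line (miR-210-3p, which marks the hypoxia response that loss of VHL turns on, with miR-21-5p and miR-100-5p) had at least 10 counts in every library. In normalized CPM (counts divided by the TMM-scaled library size and multiplied by 1000000), their sum lay between 144200 and 162100 for NC and between 240300 and 278900 for circSOD2-sh. The sum does not give the level of miR-210-3p by itself. Of the lists for other cell types, the stromal pair miR-143-3p and miR-145-5p reached 537 normalized CPM in NC replicate 4, where the rest of the group had 7.08 to 8.36, and the kidney tubule list reached 1065, where the rest had 376 to 399. The neural list reached 5231 in circSOD2-sh replicate 2, where the rest of that group had 472 to 491, and the stromal pair 219, where the rest had 7.65 to 12.4. The muscle, leukocyte and erythroid lists were also highest of NC in replicate 4, at 47.4, 17.1 and 170 normalized CPM. The leukocyte and erythroid lists were highest of circSOD2-sh in replicate 2, at 14.7 and 58.6, and the muscle list in replicate 1, at 30.4. The epithelial and liver lists were highest in neither NC replicate 4 nor circSOD2-sh replicate 2. Without NC replicate 4 and circSOD2-sh replicate 2 the rule chose 58 rows in place of 54. Leaving out libraries can only add rows to the 54, so this cannot show what these 2 libraries contribute to the members. The part of other cell types in the members was not tested. In bulk RNA, fewer cells of a type and less RNA per cell cannot be told apart.

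Together the 54 rows held 79280, 60715, 55210 and 53828 counts in NC replicates 1 to 4, and 0 in every circSOD2-sh library. This was 0.858%, 0.678%, 0.690% and 0.843% of the counts of each NC library, and the 95% binomial interval (Wilson) in the shallowest of them, replicate 4, ran from 0.836% to 0.850%. NC replicates 1 and 4 held the higher shares and replicates 2 and 3 the lower. With identical rows entered once the shares were 0.741%, 0.585%, 0.604% and 0.733%. A count of 0 allows a share of up to 7.13e-05% to 8.01e-05% in the circSOD2-sh libraries, taking 3 counts as the limit, and intervals and limits cover counting error only. As a share of the counts of all predicted rows other than predicted miRNA 455, the row with the most counts in NC, the members were nearly level over the NC libraries, at 18.2%, 17.6%, 17.9% and 18.6%.

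Predicted miRNA 785 was the most abundant member, with 33224, 23075, 23632 and 23055 counts in NC replicates 1 to 4. It made up 38.0% to 42.8% of the members' counts. In NC it averaged 4465 ± 803 normalized CPM (SD, n = 4). The circSOD2-sh level was at least 7417-fold lower, a bound that sets the NC mean against 3 counts in the circSOD2-sh library with the highest such limit, 0.602 normalized CPM. Predicted miRNA 483 came next, with 7613, 6746, 5949 and 5195 counts and 1097 ± 82.1 normalized CPM, which gave a bound of 1822-fold. These were the only members above 1000 normalized CPM.

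Predicted miRNAs 159a and 159b each had 5865, 4352, 3614 and 3909 counts, at 766 ± 144 normalized CPM. Predicted miRNA 888 had 4213, 3574, 2960 and 2813 counts, at 583 ± 67.4 normalized CPM. Predicted miRNA 159a was above 888 in each of the 4 NC libraries, although their ranges over the libraries overlapped (616 to 900 and 505 to 646 normalized CPM), and every NC value of both lay below every NC value of predicted miRNA 483. Predicted miRNA 554 had 2652, 2324, 1931 and 1758 counts (372 ± 35.5 normalized CPM), and predicted miRNA 713 had 2641, 2322, 1911 and 1759 (371 ± 36.4). Predicted miRNAs 171a and 171b had 2635, 2311, 1915 and 1757 counts each (370 ± 36.0). Predicted miRNA 554 was slightly above 171a and 171b in each NC library, while 713 could not be ordered against 554 or against 171a and 171b. All NC values of these 4 rows lay below those of predicted miRNA 888. Predicted miRNA 557, the tenth row by level, had 1247, 1009, 929 and 880 counts, at 176 ± 21.9 normalized CPM.

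**Figure D1:**
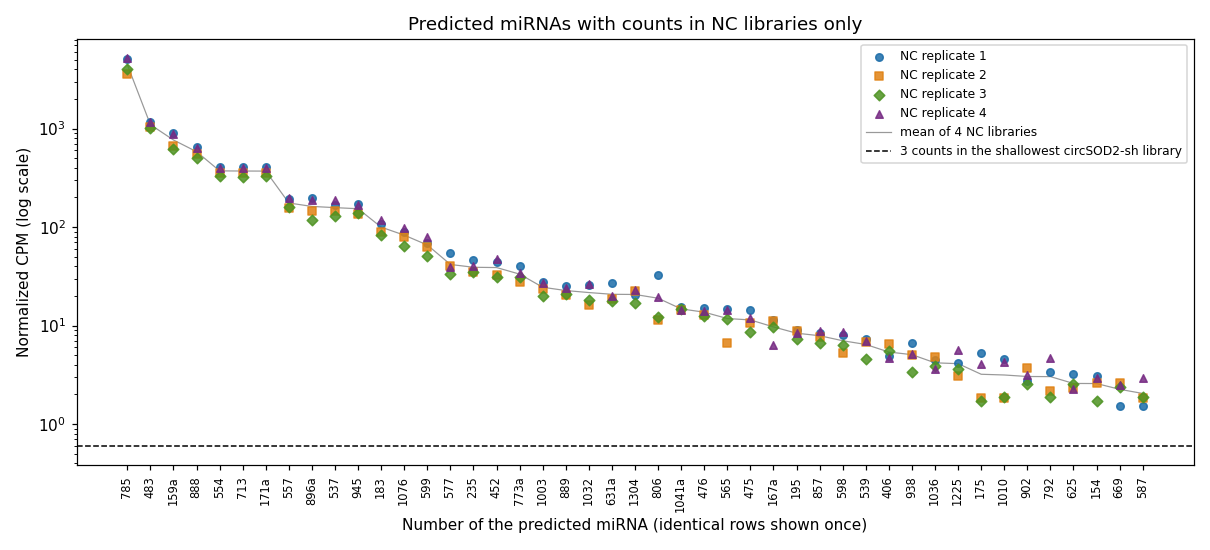
Normalized CPM (log scale) of each of the 45 distinct rows in NC replicates 1 to 4, ordered by their mean, which the line joins; the dashed line is the level of 3 counts in the shallowest circSOD2-sh library, where all of these rows had 0. Levels run from 4465 normalized CPM for predicted miRNA 785 to 2.05 for predicted miRNA 587, with 17 rows under 10.

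The levels spanned more than 3 orders of magnitude. The mean in NC ran from 2.05 to 4465 normalized CPM over the 45 distinct rows, with a median of 20.7. Beside the 2 rows above 1000, 9 lay between 100 and 1000, 17 between 10 and 100, and 17 below 10. The fold against the circSOD2-sh limit was at least 3.40 for the lowest row and at least 34.4 at the median. For the rows near the minimum the counts thus bounded the difference only weakly. The lowest bound was that of predicted miRNA 587, at 10, 12, 11 and 13 counts in NC. The bounds depended on the scaling, with a median of 18.4 under library totals in place of TMM.

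Many of the rows were copies of each other. In 7 sets, rows of 1 number held the same counts in all 8 libraries: 159a and 159b, 171a and 171b, 896a and 896b, 773a and 773b, 631a to 631d, 1041a and 1041b, and 167a and 167b. They took in 16 of the 54 rows, 29.6%. The share was like that of the other predicted rows that reached 10 counts in every NC library, where 99 of 318 rows (31.1%) were in such sets, while among known miRNAs with that minimum 9 of 391 (2.30%) were. The largest set, predicted miRNAs 631a to 631d, had 176, 121, 104 and 88 counts in each of its 4 rows. The other sets had 1277, 940, 696 and 842 counts (896), 265, 178, 183 and 151 (773), 100, 94, 87 and 64 (1041), and 75, 73, 57 and 28 (167) in each row. Every lettered row of a member's number was itself a member, as copies meet the rule together, so no other row of the same number had counts in circSOD2-sh.

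Beyond exact copies, rows of different numbers ran almost level. Among rows with at least 500 counts in every NC library, and with a tolerance of 0.03 on the log2 scale in each NC library that was set after the values were seen, predicted miRNAs 171a, 554 and 713 matched each other and also predicted miRNA 725, which was not a member. Predicted miRNA 725 had 2656, 2325, 1914 and 1761 counts in NC and 1, 1, 0 and 0 in circSOD2-sh replicates 1 to 4. Predicted miRNA 159a matched predicted miRNA 451, with 5893, 4380, 3655 and 3886 counts in NC and a single count in circSOD2-sh replicate 1. Predicted miRNA 945, with 1111, 889, 824 and 741 counts, matched predicted miRNA 549, which had 2, 1, 3 and 1 counts in circSOD2-sh. Predicted miRNAs 725, 451 and 549 were thus passed over by the rule for 2, 1 and 7 counts in circSOD2-sh, while rows that ran level with them in NC were chosen. Reads split over near-identical places, or counted at each of them, could not be told from separate miRNAs, so the levels of these rows are uncertain. The 45 distinct rows may thus still count the same reads more than once.

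The numbers of the members ran from 154 to 1304, in a table whose 1463 numbers end at 1466. Consecutive numbers were held by predicted miRNAs 475 and 476, 598 and 599, and 888 and 889. The pairs were not alike in level. Predicted miRNA 888 had 4213, 3574, 2960 and 2813 counts against 163, 134, 122 and 108 for predicted miRNA 889, and predicted miRNA 599 had 451, 412, 298 and 355 against 52, 34, 37 and 38 for predicted miRNA 598. Predicted miRNAs 475 (94, 69, 51 and 53 counts) and 476 (99, 84, 73 and 63 counts) lay closer. What order the numbers follow is not given in the sources used here.

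The members were an end of a wider set of predicted rows with few counts in circSOD2-sh. Of the 372 predicted rows that reached 10 counts in every NC library, 54 had a summed count of 0 over the circSOD2-sh libraries, 17 had 1, 9 had 2, 9 had 3 and 12 had 4 to 10. A further 88 had 11 to 100, 130 had more than that up to 1000, and 53 more than 1000. Known miRNAs held to the same minimum showed no such rows: of 391, none had 10 or fewer summed counts in circSOD2-sh, and the lowest was miR-6515-5p with 19. The lowest ratio of normalized CPM in circSOD2-sh to NC among the known miRNAs was 0.116, for miR-23a-5p, the passenger arm of miR-23a. Among the 318 other predicted rows, 88 had a ratio under 0.1 and 53 under 0.01, while their median ratio was 1.07, against 0.873 for the known miRNAs.

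**Figure D2:**
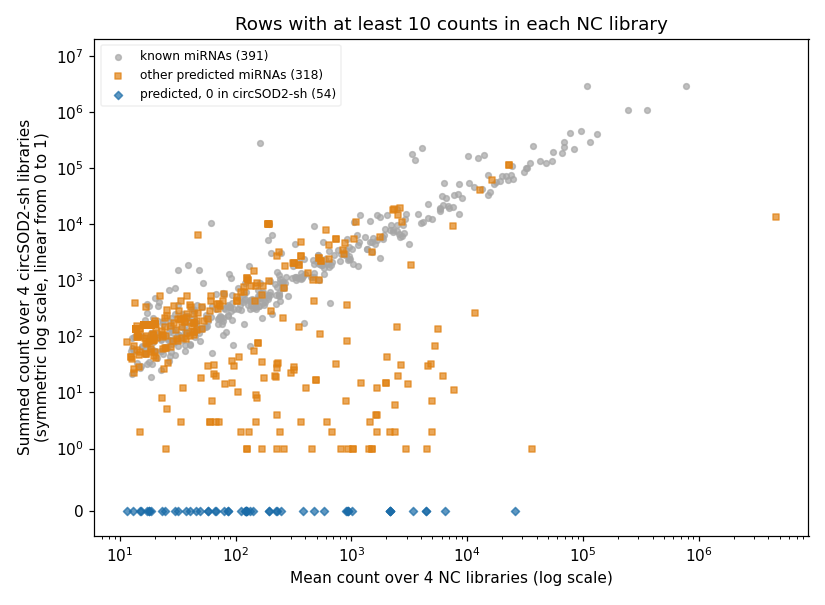
Mean count over the 4 NC libraries (log scale) against the summed count over the 4 circSOD2-sh libraries (symmetric log scale) for the 391 known miRNAs, 318 other predicted miRNAs and 54 predicted miRNAs at 0 in circSOD2-sh, all of which reached 10 counts in every NC library. Known miRNAs lie along the diagonal with no row under 19 summed counts, and predicted rows fall into a band along the diagonal and a scatter below it that ends in the row of 54 at 0.

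A count of 1 separated many rows from the members. The 17 predicted rows (14 distinct) with a single count over all circSOD2-sh libraries were more abundant in NC than the members, with a median of 941 mean counts against 122. Predicted miRNA 457 was the highest of them, with 47427, 33538, 32659 and 32073 counts in NC and 1 count in circSOD2-sh replicate 2, above every member. Of the 17 single counts, 9 fell in circSOD2-sh replicate 4, 5 in replicate 1, 2 in replicate 2 and 1 in replicate 3. Taking the first by name, predicted miRNAs 1409a and 1409b had 153, 124, 118 and 103 counts in NC, predicted miRNAs 191a and 191b had 1371, 984, 841 and 940, and predicted miRNA 36 had 27, 32, 22 and 19. The count of 1 in these rows was in circSOD2-sh replicate 1 for 1409a and 1409b and in replicate 4 for the others.

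On the NC side of the rule, the members with the lowest minimum were predicted miRNAs 154 (20, 17, 10 and 13 counts), 175 (34, 12, 10 and 18), 587 (10, 12, 11 and 13), 625 (21, 15, 15 and 10) and 669 (10, 17, 14 and 11). The rows just below it, also at 0 in circSOD2-sh, were predicted miRNAs 1259 (7, 12, 9 and 6), 612 (8, 9, 6 and 8), 169 (17, 19, 21 and 5), 645 (14, 17, 5 and 12) and 1134 (4, 8, 8 and 6). The levels on both sides overlapped. In all, 337 predicted rows had 0 counts in every circSOD2-sh library, of which 283 missed the NC minimum, and 321 had 0 counts in every NC library.

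To see how many rows any 1 library kept out, the rule was applied to 7 libraries and its rows were looked up in the eighth. The 54 members meet the rule in all 8 libraries, so they are in each set by construction, and the rows added are what this shows. Leaving out NC replicates 1 or 2 added no row, and leaving out NC replicates 3 or 4 added 1, with 5 counts in the left-out library. Leaving out circSOD2-sh replicates 1, 2, 3 or 4 gave 61, 57, 55 and 67 rows, and so added 7, 3, 1 and 13. The added rows had 1 to 3 counts in the left-out circSOD2-sh library.

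**Figure D3:**
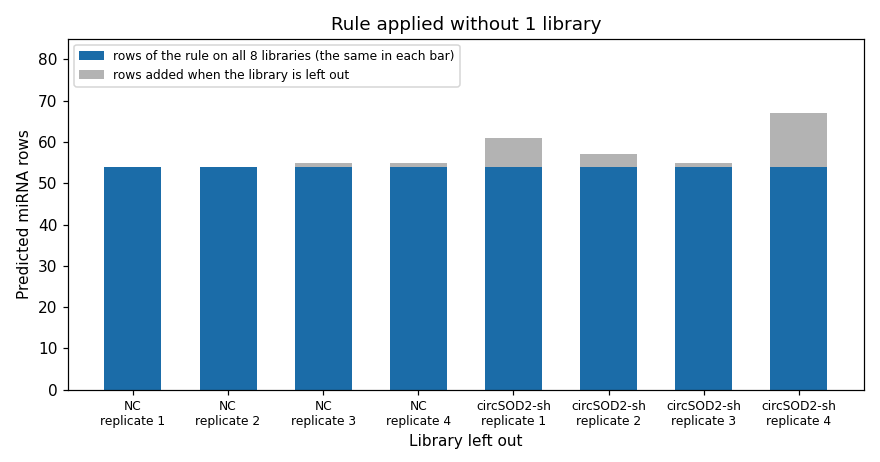
Number of predicted rows that the rule chose on 7 libraries, for each of the 8 libraries left out, as the 54 rows of the full rule (blue, the same in each bar by construction) and the rows added (grey). The bars run from 54 to 67 in all, and circSOD2-sh replicate 4 adds the most rows, 13.

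Fewer rows showed the opposite pattern. With the groups exchanged (0 in each NC library and at least 10 in each circSOD2-sh library), 8 rows were found, 0.257% of all rows. They were 7 predicted miRNAs, 2.64% of the 265 predicted rows with that minimum in circSOD2-sh, against 14.5% (54 of 372) for the members, and 1 known miRNA. How strict the condition of 0 counts was in each group depended on the scaling. The level of 3 counts lay between 0.460 and 0.674 normalized CPM for NC and between 0.510 and 0.602 for circSOD2-sh, while as a share of the library total it was 3.25e-05% to 4.70e-05% for NC and 7.13e-05% to 8.01e-05% for circSOD2-sh. Predicted miRNA 1126 was the highest, with 660, 471, 420 and 597 counts in circSOD2-sh replicates 1 to 4 (96.5 ± 14.9 normalized CPM, at least 143-fold higher than the limit in NC). Predicted miRNA 741 followed with 154, 157, 116 and 186 counts, and predicted miRNAs 662, 146, 641, 1236 and 1210 lay between 3.63 and 7.51 normalized CPM. The known row was miR-26a-1-3p, the passenger arm of miR-26a-1. The study listed it among its candidate miRNAs from this sequencing and, after qRT-PCR in HK2 cells, among the potential targets of circSOD2. The row had 23, 21, 23 and 36 counts (4.66 ± 1.23 normalized CPM). Its RefSeq mature sequence, from the plus strand of GRCh38.p14 at chr3:37969452-37969473, is shown with its seed (bases 2 to 8) in capitals, as the 1 row with a sequence that was split between the groups in this way.
miR-26a-1-3p: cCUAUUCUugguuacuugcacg
No known miRNA met the rule by which the members were chosen.

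Predicted miRNA 455 had 5461322, 5041284, 4345958 and 3752962 counts in NC and 3760, 3073, 2352 and 4117 in circSOD2-sh. It averaged 799600 ± 49500 normalized CPM in NC and was 1341-fold lower in circSOD2-sh, at 597 ± 114, with no overlap. As a share of the library total it was 57.1% in NC and 0.0839% in circSOD2-sh, 681-fold lower. It was the only predicted row above predicted miRNA 457 in NC. The members are set beside it only because it had the most counts in NC, and a link between them was not tested. Per 1000000 counts of predicted miRNA 455, predicted miRNA 785 had 6084, 4577, 5438 and 6143 counts in NC replicates 1 to 4 and predicted miRNA 483 had 1394, 1338, 1369 and 1384. In circSOD2-sh the limit of 3 counts stood at 729 to 1276 on this scale in single libraries, and at 225.5 over the group, where 13302 counts of it were found. Only predicted miRNAs 785 and 483 lay above the limit of every library, and 7 of the 45 distinct rows above that of the group. For the other 38, a ratio to predicted miRNA 455 as high as in NC would also have left 3 or fewer counts in circSOD2-sh, so a change relative to predicted miRNA 455 was not detectable at this depth.

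Among the NC libraries, which the rule used only for the minimum, the members varied more than known miRNAs of like counts. The coefficient of variation (CV) of normalized CPM over the 4 NC libraries ran from 2.94% to 53.6%, with a median of 17.6% over the distinct rows. For mean counts of 10 to 100 the median CV was 21.7% for the members, 19.8% for the other predicted rows and 17.0% for known miRNAs. For 100 to 1000 counts the values were 17.2%, 16.7% and 9.82%, and for 1000 counts or more 10.7%, 13.1% and 6.54%. Counting error alone gives about 18.3%, 6.66% and 1.93% for the members in these ranges. The members thus varied like the other predicted rows, and above counting error once they had 100 counts. No test was run on these spreads.

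Among the 27 distinct rows that had 50 counts or more in every NC library, the smallest spreads were those of predicted miRNAs 1041a (CV 2.94%), 483 (7.48%) and 476 (9.02%). Predicted miRNA 806 had the largest, 52.8%, with 215 counts in NC replicate 1 against 74, 71 and 86 in the others. It was followed by predicted miRNA 1032 (24.5%; 168, 104, 107 and 118 counts) and predicted miRNA 896a (22.7%). For predicted miRNA 806 a single library thus carried most of the spread, while 1032 and 896a were high in both NC replicates 1 and 4.

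The members shared the libraries in which they stood high. Of the 45 distinct rows, 27 had their highest normalized CPM in NC replicate 1, 14 in replicate 4, 4 in replicate 2 and 0 in replicate 3, and 26 had their lowest in replicate 3. The other predicted rows were divided much like them, with 112, 96, 17 and 24 of 249 rows highest in replicates 1, 4, 2 and 3. Of 391 known miRNAs, 166 were highest in replicate 3, 107 in replicate 4, 67 in replicate 2 and 51 in replicate 1. These counts were made after the values were seen and have no test. Under library totals, RLE size factors and the counts of known miRNAs as library size, 25, 25 and 28 members were highest in replicate 1. The division of the known miRNAs depended on the scaling: with their own counts as library size, 127 were highest in replicate 4, 122 in replicate 1, 88 in replicate 3 and 54 in replicate 2, so that they too were most often highest in replicates 1 and 4. NC replicates 1 and 4 also had the higher shares of predicted counts (63.8% and 63.3%, against 60.1% and 58.1% in replicates 2 and 3), and the highest levels of predicted miRNA 455 (837700 and 843500 normalized CPM, against 776100 and 741100). Whether a step of library preparation moved with this was not tested, since the labels give no batch.

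**Figure D4:**
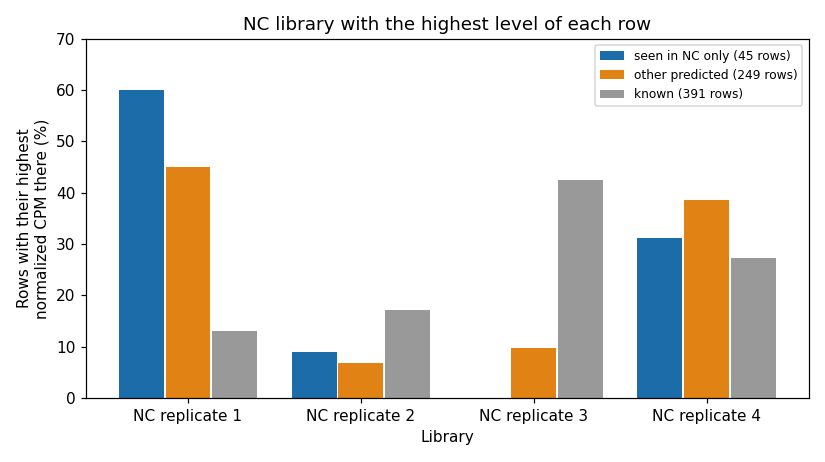
Percent of rows that had their highest normalized CPM in each of the 4 NC libraries, for the 45 members, 249 other predicted rows and 391 known miRNAs. The members were highest in NC replicate 1 for 60.0% and in replicate 4 for 31.1%, and known miRNAs most often in replicate 3, for 42.5% under this TMM scaling; with known counts as library size they were most often highest in replicates 4 (32.5%) and 1 (31.2%).

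Relative to predicted miRNA 455 the members were steadier. Of the 27 rows that had 50 counts or more in every NC library, 26 had a smaller CV as a ratio to predicted miRNA 455 than as normalized CPM, and the median CV was 10.3% against 15.6%. The other predicted rows behaved alike, with a smaller CV in 125 of 143 and medians of 11.4% against 15.3%. Known miRNAs went the other way, with a smaller CV in 50 of 256 and medians of 12.4% against 8.32%. The steadiest of the abundant members was predicted miRNA 483, whose CV relative to predicted miRNA 455 was 1.78%, and predicted miRNAs 554, 171a and 713 were at 3.68%, 3.80% and 3.95%. Predicted miRNA 785 (13.1%) and predicted miRNA 159a (12.9%) kept more of their spread, with NC replicate 2 lowest for 785 and NC replicate 3 lowest for 159a. These ratios share the counts of predicted miRNA 455 and are a description.

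In the edgeR quasi-likelihood fit over all features with Benjamini-Hochberg adjustment, 46 of the 54 members passed the filter on low counts, and they could pass it only through the NC libraries. The 8 that did not were predicted miRNAs 175, 1010, 902, 792, 625, 154, 669 and 587, with mean counts of at most 18.5 in NC. All 46 were called lower in circSOD2-sh at an adjusted p under 0.05, beside 32.4% of the 895 features tested, as the rule that chose them ensured. The predicted rows that the rule did not choose were called in both directions: of 386 tested, 112 (29.0%) were lower and 173 (44.8%) higher, beside 32.4% and 33.3% of all features. The rule had taken only rows at 0 in circSOD2-sh out of this set. With identical rows entered once, 117 were higher and 104 lower. At a mean of at least 50 counts the order was reversed, with 64 higher and 87 lower. Of 463 known miRNAs, 132 were lower and 125 higher. These shares depended on the scaling: when TMM was replaced by library totals, the median of the log2 fold changes moved from -0.0021 to 0.96, and the calls over all features from 298 higher and 290 lower to 613 and 158. Of the other predicted rows, 258 were then higher and 100 lower, and of the known miRNAs 355 higher and 12 lower. Upper quartile scaling gave 319 higher and 13 lower for the known miRNAs. The members have 0 counts in circSOD2-sh under any scaling, so their calls carry no information on it.

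As a whole, the other predicted rows held a smaller part of the counts in circSOD2-sh when predicted miRNA 455 was left out of the total. No difference between the groups was shown with it in the total. With predicted miRNA 455 left out of the total, they held 8.14 ± 1.23% of the counts in NC and 4.03 ± 0.612% in circSOD2-sh (SD, n = 4, with no overlap; two-sided p = 0.0286 by exact permutation, the lowest value that 4 against 4 libraries allow). With predicted miRNA 455 in the total, the difference (NC minus circSOD2-sh) turned to -0.557 percentage points (exact permutation p = 0.171). The other predicted rows include predicted miRNAs 457, 451, 725 and 549, which the rule passed over for only a few counts in circSOD2-sh. Predicted miRNAs 451, 725 and 549 also ran level with members in NC. The comparison is thus not free of the rule that chose the members.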

How the data were processed

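Small RNA libraries of 8 samples, 4 NC and 4 circSOD2-sh, were compared. The authors deposited whole-number read counts per miRNA, a table of CPM that they made from them, and a table of their own comparison (group means, fold changes, p-values and calls), which was not used. The submitters' processing notes name FastQC 0.11.2, Trimmomatic 0.36, Bowtie 1.1.1 and the GRCh38 build. How predicted miRNAs were found, and how reads with several places were counted, is not given in the sources used here, and either can create or copy a row. The members, lists and tests were chosen with earlier results of these data known.

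Counts were normalized with TMM and fitted with the edgeR 4.0.16 quasi-likelihood test in R 4.3.3 without a block. Features were kept by filterByExpr with a minimum count of 10, and p-values were adjusted over all features that passed (Benjamini-Hochberg, called under 0.05). Normalized CPM was the count divided by the TMM-scaled library size. The limit for a count of 0 was 3 counts per library. The fits were tested on simulated data that held no loss like that of predicted miRNA 455, so this cannot decide between the scalings. Alternatives used DESeq2 1.42.0, limma 3.58.1 on the deposited CPM, other scalings and filters, a replicate block, and fewer libraries; leaving out NC replicate 4 and circSOD2-sh replicate 2 together, and library totals for predicted miRNA 455, were added after the data were seen. Within each group, replicate libraries differed by more than sampling noise in a chi-square comparison and were all kept.

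Rows were named by a rule: the 10 members with the highest NC mean, sets of identical members, 5 rows just inside and 5 just outside each threshold, the 3 members with the largest and the 3 with the smallest spread over NC, predicted miRNA 455, and all rows of the exchanged rule. Near-identical rows, consecutive numbers and predicted miRNA 457 were chosen after their values were seen. The summed levels of the epithelial, muscle, leukocyte, erythroid and liver lists were 5086 to 5828, 9.38 to 47.4, 1.19 to 17.1, 26.8 to 170 and 3.75 to 5.83 normalized CPM in NC, and 4398 to 4868, 10.7 to 30.4, 2.13 to 14.7, 21.6 to 58.6 and 1.36 to 2.49 in circSOD2-sh.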

Additional observations from a re-analysis of the deposited data

How the results depend on the processing

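The members numbered 54 under the rule, 35 with a minimum of 50 counts in NC and 100 with at most 3 counts in each circSOD2-sh library, and 54 to 67 when a library was left out. Their median share of NC counts, 0.766%, became 0.668% with identical rows once, 1.80% without predicted miRNA 455 in the total and 1.997% per counts of known miRNAs, and ran from 0.690% to 0.843% without an NC library. Their median CV over NC was 16.3% with library totals, 20.9% with known counts as library size, and 14.7% to 16.8% without an NC library. The median bound on their fold was 18.4 with library totals and 46.2 with known counts, and 31.1 to 38.8 without a library. Over all features, higher calls were 561 and 558 with limma on log2(CPM + 1) and log2(CPM + 0.1), 613 with library totals, 570 with upper quartile scaling and 149 at a mean of at least 50 counts, and lower calls were 163, 163, 158 and 160 under the first 4 of these. At that mean 64 other predicted rows were higher and 87 lower, and with identical rows once 117 were higher and 104 lower. Without 1 library, higher calls ran from 256 to 303, lower calls from 279 to 358, members called lower from 45 to 50, and other predicted rows from 145 to 186 higher and 108 to 133 lower. The difference in the share of the other predicted rows, 3.68 to 4.52 percentage points without 1 library, was -0.557 with all counts in the total. The sign turned, but no difference was shown there (exact permutation p = 0.171). With the replicate number as a block (replicate block), 296 features were higher, 278 lower and 46 members lower. The deviations of same-numbered samples from their group means correlated at 0.224, -0.065, 0.085 and -0.15. Samples of unlike number were not compared, so this cannot decide whether the numbers pair the samples. The labels tie the numbers to no shared batch. The cause of these shifts was not tested. Depth limits the rows near 10 counts in NC, where a count of 0 in circSOD2-sh bounds the fold at 3.40.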
